A study of Mus musculus with 12 samples.

Results

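The amino acid transporters of the solute carrier (SLC) families 1, 3, 6, 7, 36, 38 and 43 were compared between macrophages sorted from mouse pancreatic tumor tissue and macrophages sorted from normal pancreas. Members were all genes whose name on the array starts with Slc1a, Slc3a, Slc6a, Slc7a, Slc36a, Slc38a or Slc43a followed by a number, and each gene was represented by the probe with the highest mean processed signal. The rule gave 65 of the 24467 named genes on the array, of which 62 are transporter genes and 3 (Slc36a1os, Slc6a19os and Slc7a6os) are transcripts named for the opposite strand of one.

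Both groups, tumor and normal pancreas macrophages, came from female C57/B6 mice of 4 to 5 months, with the genotype not provided in the labels. The design text lists wild-type, KPC and FLT3-CRE/LSL-YFP mice (KPC is a genetic pancreatic cancer model and the last a lineage reporter), the treatment protocol mentions tumor implantation, and no label ties a sample to one of these. Cells were sorted by flow cytometry directly into lysis buffer, and their amplified, Cy5-labelled cDNA was hybridized to 6 arrays per group. A pair of arrays in each group shares a sample name (tumor replicates 4 and 6, normal replicates 2 and 3) and was averaged, which left 5 samples per group. No label states that each sample is its own animal, so the tests below weigh differences against a sample-to-sample spread that may be technical in part.

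Amino acids cross membranes through carriers, and most cells combine several. Sodium-coupled carriers of families 1, 6 and 38 concentrate amino acids in the cell, the exchangers of family 7 swap an amino acid inside for one outside, many of them only when joined to a heavy chain of family 3, and carriers of family 36, of which Slc36a1 is proton-coupled, work at endosomes, lysosomes and the cell surface. In macrophages, arginine uptake feeds nitric oxide synthase and arginase, cystine uptake feeds glutathione, and glutamine and leucine supply growth signalling through mTORC1. Pancreatic acinar cells, which make digestive enzymes, take up large amounts of amino acids for secretion.

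Between 51.2% and 55.7% of probes were well above background on tumor arrays, and between 39.3% and 58.8% on normal arrays. The 75th percentile of processed signal, to which each array was scaled, ran from 1091 to 1398 on tumor arrays and from 398.4 to 1547 on normal arrays. Each of 3 slides held 2 arrays of either group. All 14 macrophage markers were well above background on all 12 arrays, with 0.688% to 0.835% of the summed signal on tumor arrays and 0.672% to 0.919% on normal arrays. Of these markers 9 had a negative difference and limma called 0. At an unadjusted p under 0.05, 2 were lower in tumor, beside 13.1% of all genes in either direction. They were Cd163 (log2 difference -1.77 ± 0.45, SE, no overlap) and Adgre1 (-0.80 ± 0.25, overlapping groups). Digestive-enzyme and other acinar markers held 0.0127% to 0.286% of the signal on tumor arrays and 0.723% to 4.9% on normal arrays. Of the 26 acinar markers tested, 22 fell in tumor samples and 0 rose (limma). Monocyte markers stood higher in tumor samples (9 of 9 positive, 3 of them rose), and 8 of 10 neutrophil markers had a positive difference, with 1 that rose. Over all genes tested, limma called 0.55% lower and 0.312% higher in tumor.

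Of the 62 transporter genes, 22 had a probe well above background on all 12 arrays, 11 more passed the filter (well above background on at least 3 of 6 arrays of either group), 9 were seen on fewer arrays by the probe used and 20 on none. The 22 genes include the heavy chain Slc3a2, its partners Slc7a5, Slc7a7 and Slc7a8, the arginine carrier Slc7a1, the neutral carriers Slc1a4 and Slc1a5, the taurine carrier Slc6a6, the glutamine carriers Slc38a1 and Slc38a2, Slc36a1 and Slc36a4 of family 36, and Slc43a2 and Slc43a3. Also among the 22 are Slc6a8, Slc6a9, Slc6a20a, Slc7a4, Slc38a3, Slc38a7 and Slc38a10. The 11 genes that passed with some dark arrays are Slc1a2, Slc6a12, Slc6a13, Slc6a16, Slc6a18, Slc7a2, Slc7a10, Slc7a15, Slc36a3, Slc38a5 and Slc38a6. Of all genes that passed, 5 (Slc6a13, Slc7a2, Slc7a10, Slc7a15 and Slc38a5) met the filter in 1 group only, so their probes had to be brighter on some arrays of that group.

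The 20 genes with no array above background have 1 probe each. They include Slc7a11, the light chain of the cystine/glutamate exchanger, Slc7a6, which like Slc7a7 exchanges cationic for neutral amino acids, Slc1a3, a glutamate carrier best known from astrocytes, and Slc43a1, a carrier of large neutral amino acids. The others are Slc1a7, Slc6a2, Slc6a3, Slc6a4, Slc6a5, Slc6a11, Slc6a14, Slc6a15, Slc6a19, Slc7a3, Slc7a9, Slc7a12, Slc7a13, Slc36a2, Slc38a4 and Slc38a8. By the probe used, Slc1a1, Slc1a6, Slc3a1, Slc6a7, Slc6a17, Slc6a20b, Slc7a14, Slc38a9 and Slc38a11 were seen on few arrays, and another probe of Slc38a9 was above background on 6 tumor and 3 normal arrays. A probe not well above background gives no level for its gene, and with 1 probe a gene read elsewhere along its transcript cannot be told from one that is not expressed. Of the opposite-strand transcripts, Slc7a6os was above background on all arrays (log2 difference -0.22 ± 0.28, SE), Slc6a19os on some and Slc36a1os on none.

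**Figure D1:**
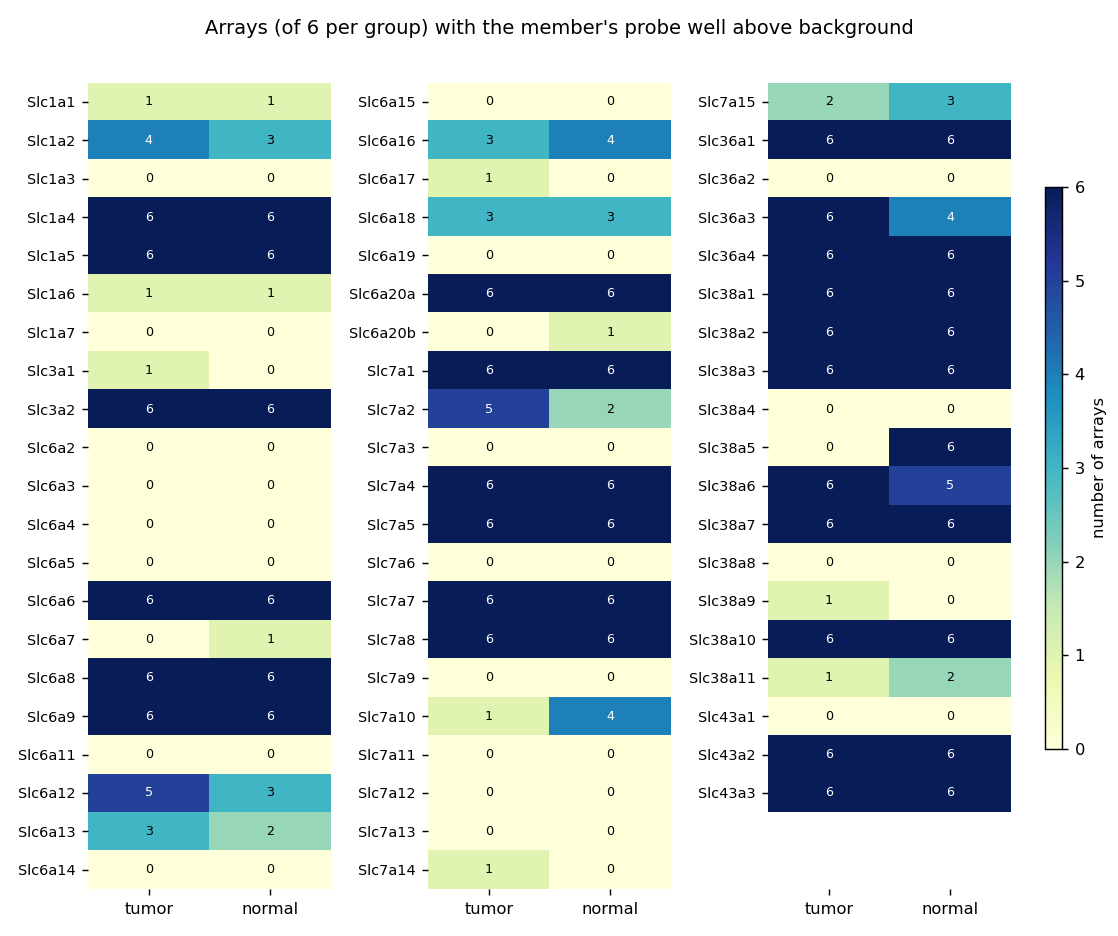
Number of arrays, of 6 in tumor (left column of each block) and 6 in normal (right column), on which the probe used for a transporter gene was well above background, for 61 of the 62 genes; colour and digit both give the number. Slc38a5 stood at 0 tumor arrays and 6 normal arrays.

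Among the 33 transporter genes tested, 1 fell in tumor samples and 0 rose at an adjusted p under 0.05 (limma, two-sided, Benjamini-Hochberg over all 14740 genes). That is 3.03% of the members, against 0.862% of all genes tested called in either direction, 0.55% lower and 0.312% higher in tumor. At an unadjusted p under 0.05 there were 6 members (18.2%), 3 higher and 3 lower in tumor, beside 13.1% of all genes. The median log2 difference, tumor minus normal, was -0.10 over the members (quartiles -0.49 and 0.30), beside 0 over all genes (quartiles -0.35 and 0.36). The difference was above 0 for 15 of 33 members (45.5%), beside 49.9% of all genes. The groups did not overlap for 4 members (12.1%, Slc36a4 and Slc38a1 higher, Slc38a3 and Slc38a5 lower in tumor), beside 3.55% of all genes (1.82% higher, 1.72% lower). Because the filter lets a gene pass through its brighter group, these shares describe the genes that passed and not all members.

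Family by family, 7 members of family 38 were tested (4 positive, 3 negative, 1 called), 9 of family 6 (2 positive, 7 negative) and 8 of family 7 (4 positive, 4 negative). In family 36 all 3 tested were positive, in family 43 both were negative, in family 1 there was 1 positive and 2 negative, and the tested member of family 3 was positive. Outside family 38, limma called 0 in each, and 3 of those members (Slc6a9, Slc7a2 and Slc36a4) had an unadjusted p under 0.05. The sign of a gene near background says little. Over all genes, those with a probe above background on no array had a median difference of -0.49, with 6642 of 6869 negative. For 11 members the 95% interval of the difference, by the probe used, lay wholly between -1 and 1 on the log2 scale: Slc3a2, Slc6a6, Slc6a18, Slc6a20a, Slc7a1, Slc7a7, Slc36a1, Slc38a2, Slc38a7, Slc38a10 and Slc43a2. Among them, Slc6a18 was above background on 3 of 6 arrays of each group, so its interval rests in part on background signal. A second Slc36a1 probe gave 0.77 ± 0.24 (SE) without overlap. For another 11 members the interval was over 2 log2 units wide, so the size of the difference is poorly known for these genes, Slc38a5, Slc6a9 and Slc7a2 among them.

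**Figure D2:**
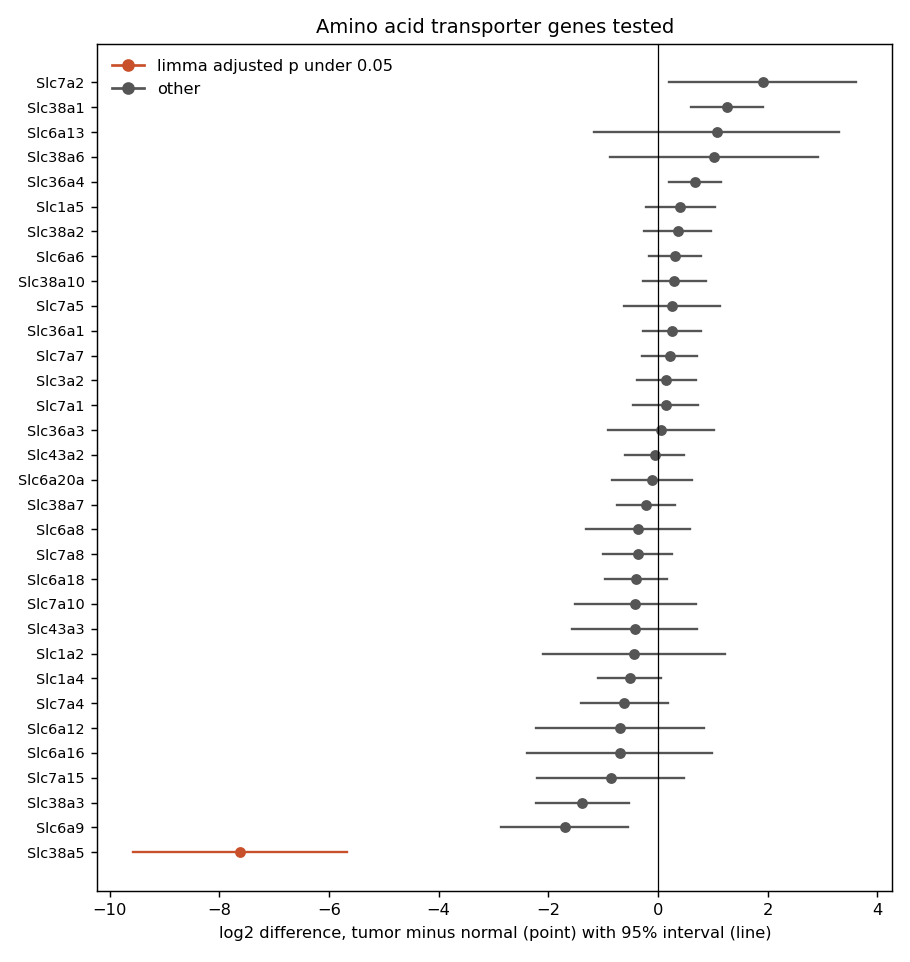
Log2 difference, tumor minus normal, for 32 of the 33 transporter genes tested (points), with 95% intervals from limma (lines), sorted by size. Slc38a5, at the bottom, is the gene with an adjusted p under 0.05; its tumor signal is not above background, so its fitted point is not a measured level.

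Slc38a5 fell in tumor samples. It encodes SNAT5, a sodium-coupled system N carrier of glutamine, asparagine, histidine, serine and glycine, known in mouse pancreas among other tissues. Its probe lies on the X chromosome (mm9, chrX:7857241-7857300, plus strand), and the array annotation names the gene but gives no exon or intron. The last 30 bases of the probe are shown because the comparison rests on this stretch, with AATAAA, the usual polyadenylation signal, in capitals. On the strand printed, AATAAA stands in 12.6% of all 39429 probes of the array and in 7 of 84 member probes (8.33%).
Slc38a5: gctaaaagggaagAATAAAgatgctgaatg

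On the log2 scale relative to each array's 75th percentile, the Slc38a5 probe read -5.54, -5.36, -5.68, -5.54 and -5.58 in tumor replicates 1, 2, 3, 4 with 6, and 5. In normal replicates 1, 2 with 3, 4, 5 and 6 it read 1.94, 3.97, 2.97, 3.26 and -1.75. All tumor samples lay together at background, all normal samples lay above them, and normal replicate 6 lay well below the other normal samples. Of the arrays, 0 of 6 tumor and 6 of 6 normal read the probe well above background, so tumor has only a bound. On the group means Slc38a5 was at least 50.3-fold lower there, a value that takes no account of the spread between samples. The limma adjusted p of 0.0035 belongs to the fitted difference given below and not to this bound. For the bound, the normal mean was set against a tumor mean built from the detection floor of each array, taken as the dimmest signal of any detected probe, unless the Slc38a5 probe itself was brighter.

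The fitted Slc38a5 difference of -7.62 ± 0.88 (log2, SE) depends on background signal and is no measured level. Without each sample in turn it ran from -8.57 to -7.15, and limma called it in 10 of 10 such fits. Those fits kept the genes filtered on all samples, and Slc38a5 passed that filter through the normal group alone. With every tumor value at background, the 10 calls are no independent support. Within slides 1, 2 and 3 alone, which share samples, it was -8.41, -9.04 and -6.36. With 2 arrays against 2 limma's adjusted p was 0.125, 0.0935 and 0.64. With normexp background correction the Slc38a5 difference over all samples was -4.21 (limma adjusted p = 0.000977). In bulk sorts such as these, fewer cells of a type and less RNA per cell cannot be told apart.

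Acinar markers, like Slc38a5, were lower in tumor than in normal samples. Their mean log2 signal over 26 genes was -2.92, -2.02, -0.66, 0.57 and 1.38 in tumor replicates 1, 2, 3, 4 with 6, and 5, and 5.36, 7.15, 5.91, 6.28 and 3.08 in normal replicates 1, 2 with 3, 4, 5 and 6. The 5 normal samples stood in the same order for Slc38a5 as for the acinar mean. At the ends of that order, normal replicates 2 and 3 were also the dimmest arrays (75th percentile 398.4 and 430.2) and replicate 6 the brightest (1547). In tumor samples Slc38a5 stayed at background over the whole range of the acinar mean. Of the 27 acinar markers on the array, 12 were well above background on all 6 tumor arrays and 25 on all 6 normal arrays. Of the 6 islet markers tested limma called 0, with 6 of 6 differences negative. At an unadjusted p under 0.05, 4 islet markers were lower, beside 13.1% of all genes in either direction. The islet list held 0.00801% to 0.0114% of the signal on tumor arrays and 0.0153% to 0.295% on normal arrays. The part of acinar or islet RNA, or of array brightness, in the Slc38a5 signal was not tested.

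**Figure D3:**
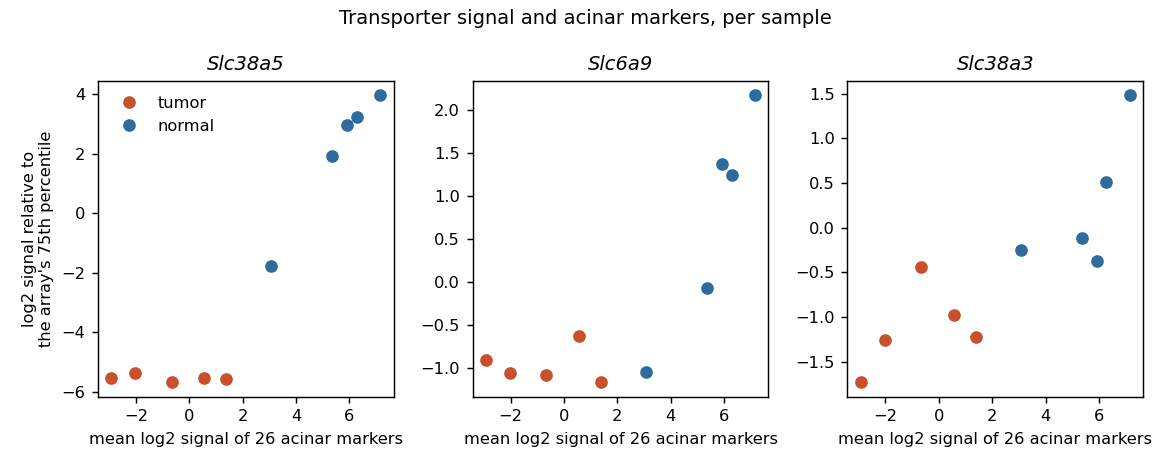
Log2 signal of Slc38a5, Slc6a9 and Slc38a3 relative to the array's 75th percentile (vertical axes) against the mean log2 signal of 26 acinar markers (horizontal axes), with 1 point per sample, 5 tumor and 5 normal. The tumor points of Slc38a5 lie between -5.68 and -5.36 while their acinar mean runs from -2.92 to 1.38, and its normal points climb with the acinar mean. The normal points of Slc38a3 do not keep the acinar order: the lowest is replicate 4, at -0.37 with an acinar mean of 5.91.

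Slc38a3 encodes SNAT3, another system N carrier tested, known for glutamine transport in liver, kidney and brain. Its probe (chr9:107553825-107553884, mm9) read -1.73, -1.26, -0.44, -0.98 and -1.22 in tumor replicates 1, 2, 3, 4 with 6, and 5, and -0.12, 1.48, -0.37, 0.51 and -0.25 in normal replicates 1, 2 with 3, 4, 5 and 6. All tumor samples lay below all normal samples, and the gap between the nearest was small. The log2 difference was -1.38 ± 0.38 (SE, limma adjusted p = 0.15). With the 12 arrays taken as separate samples it was -1.56 with a limma adjusted p of 0.0449, which counts the arrays of 1 name as independent.

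Slc38a1 encodes SNAT1, a sodium-coupled carrier for glutamine and other small neutral amino acids. The array has 3 probes for it on the minus strand of chromosome 15 (mm9), all above background, and they gave different results. The last 30 bases of each are shown because the result depends on which stretch was read. No capitals are used in this group.
Slc38a1, probe 1, chr15:96406793-96406822: gttagatacccagctcctgaaatcgttttc
Slc38a1, probe 2, chr15:96405187-96405216: ttaaaaaatacatcagtttagtttgcaagc
Slc38a1, probe 3, chr15:96402753-96402782: atccttcctttgtatgtaaatatgttgtaa

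Probe 1, the brightest and the one used for Slc38a1, read 2.01, 2.36, 2.10, 1.37 and 2.12 in tumor replicates 1, 2, 3, 4 with 6, and 5, and 1.17, 0.29, 0.90, 0.06 and 1.23 in normal replicates 1, 2 with 3, 4, 5 and 6. All tumor samples lay above all normal samples, with tumor replicates 4 and 6 nearest to them. The log2 difference was 1.26 ± 0.30 (SE, 95% interval 0.60 to 1.92, or 1.51-fold to 3.79-fold), and limma's adjusted p was 0.095. Without each sample in turn the difference ran from 1.09 to 1.42 (limma adjusted p 0.072 to 0.229), and within slides 1, 2 and 3 it was 1.45, 1.17 and 1.06. It passed the threshold in 3 alternatives, with normexp background correction (1.19, limma adjusted p = 0.0361), with a trended and robust variance (1.26, 0.0369) and with 12 arrays as separate samples (1.23, 0.0338). The last counts the arrays of 1 name as independent. With the mean over the probes of the gene the difference was 0.99 and missed the threshold (limma adjusted p = 0.121).

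Probe 2 of Slc38a1 read -1.51, -1.46, -0.73, -1.25 and -0.81 in the tumor samples, and -3.55, -3.67, -2.70, -3.71 and -1.74 in the normal samples, both in the order above. Its groups did not overlap either, and the log2 difference was 1.92 ± 0.39 (SE). It was well above background on 6 tumor arrays and 2 normal arrays, so the size of that difference is uncertain. Probe 3, which lies farthest along the transcript, read -1.92, -1.36, -1.54, -0.56 and -1.33 in the tumor samples and -1.32, -1.25, -1.09, -1.24 and -0.80 in the normal samples. Those groups overlapped, with a log2 difference of -0.20 ± 0.27, although the probe was well above background on all 12 arrays. Which transcript forms each probe reads was not tested.

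**Figure D4:**
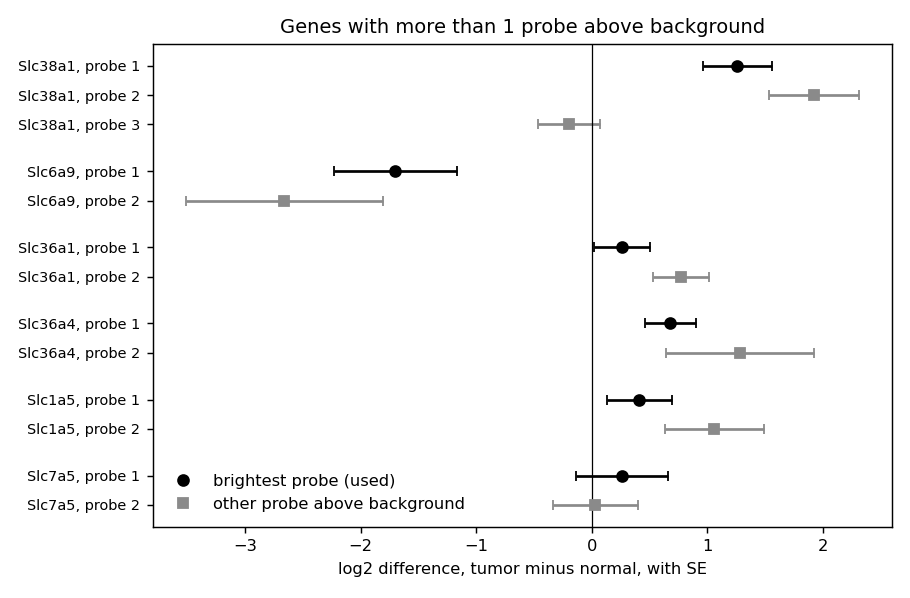
Log2 difference, tumor minus normal, with its SE, for each probe of the 6 genes with more than 1 probe that passed the filter; black circles are the brightest probe of a gene and grey squares the others. The probes of Slc38a1 stand at 1.26, 1.92 and -0.20, on both sides of 0.

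The remaining tested members of family 38 were not called. Slc38a2, or SNAT2, a system A carrier that cells induce when amino acids are scarce, averaged 2.09 ± 0.28 in tumor and 1.73 ± 0.49 in normal samples (SD, 5 samples each), a log2 difference of 0.36 ± 0.28 (SE). Slc38a6 averaged -0.88 ± 0.90 in tumor and -1.90 ± 2.01 in normal samples, and its wide normal spread comes with normal replicate 4, at -5.21. Slc38a7, a lysosomal carrier of glutamine and asparagine, had a difference of -0.22 ± 0.24 and Slc38a10 one of 0.30 ± 0.26. Slc38a9, the lysosomal arginine sensor of mTORC1, could not be judged from the probe with the highest mean signal. That probe was above background on 1 of 12 arrays, a single spot of 30900 units on tumor replicate 3 that carries a non-uniformity flag. Another Slc38a9 probe (chr13:113523042-113523101, mm9), above background on 6 tumor and 3 normal arrays, read -2.0, -0.66, -1.39, -1.90 and -1.65 in tumor samples and -2.38, -4.30, -5.53, -1.36 and -1.07 in normal samples. Those groups overlapped, and the log2 difference was 1.41 ± 0.79 (SE).

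Slc6a9 encodes the glycine transporter GLYT1, which takes up glycine with sodium and chloride. It has 2 probes that share 51 of their 60 bases on chromosome 4 (mm9, plus strand). Their last 30 bases are shown because a shift of a few bases comes with a change in detection, and capitals mark bases that lie in both probes.
Slc6a9, probe 1, chr4:117541872-117541901: GTCCGTAGGTTTTAATGAAATTTCTATTCC
Slc6a9, probe 2, chr4:117541881-117541910: TTTTAATGAAATTTCTATTCCtgtctctga

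Probe 1 of Slc6a9, the brightest, read -0.91, -1.06, -1.08, -0.63 and -1.17 in tumor replicates 1, 2, 3, 4 with 6, and 5, and -0.07, 2.17, 1.37, 1.24 and -1.05 in normal replicates 1, 2 with 3, 4, 5 and 6. The tumor samples lay close together, 4 normal samples lay above them, and normal replicate 6 lay among them. The log2 difference was -1.70 ± 0.53 (SE, limma adjusted p = 0.196). Without normal replicate 6 it was -2.15 and passed the threshold (limma adjusted p = 0.0348), and over all 10 fits that leave out a sample the adjusted p ran to 0.372. Within slides 1, 2 and 3 the difference was -2.03, -2.64 and -0.98.

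Probe 2 of Slc6a9 read -4.80, -3.65, -2.98, -4.26 and -3.85 in the tumor samples, and -1.53, 0.60, -0.17, -0.52 and -4.63 in the normal samples, in the same order. It was above background on 1 tumor array and 5 normal arrays, so the size of its difference, -2.66 ± 0.85 (log2, SE), is uncertain. On both probes normal replicates 2 with 3 were highest and normal replicate 6 was lowest of the normal samples, as for the acinar mean. The part of acinar RNA, of other cell types or of array brightness in the Slc6a9 and Slc38a3 signals was not tested.

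**Figure D5:**
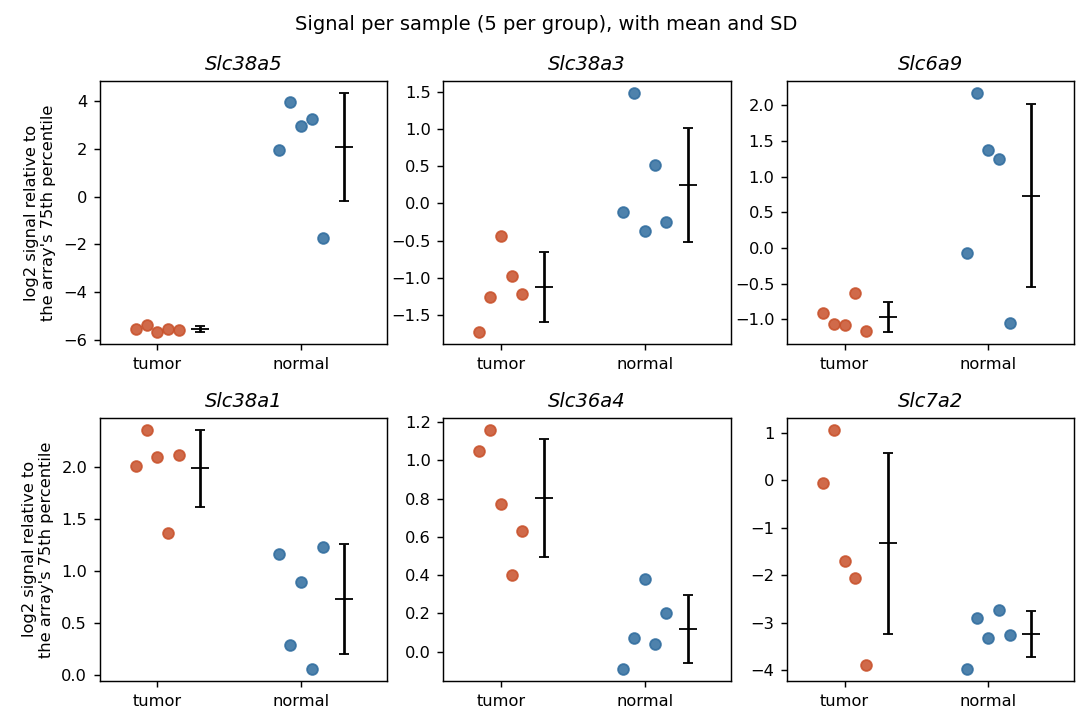
Log2 signal relative to the array's 75th percentile in each of the 5 tumor (left) and 5 normal (right) samples for the 6 members with an unadjusted p under 0.05; bars give the mean and SD, and each panel has its own vertical axis. Groups of Slc38a5, Slc38a3, Slc38a1 and Slc36a4 do not overlap, and those of Slc6a9 and Slc7a2 do.

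The other members of family 6 carry neurotransmitters, osmolytes and related compounds, and limma called 0 of them. Slc6a6, the taurine transporter, averaged 4.35 ± 0.19 in tumor and 4.04 ± 0.27 in normal samples (SD), a difference of 0.31 ± 0.21 (log2, SE). Slc6a8, the creatine transporter, had a difference of -0.36 ± 0.43, and Slc6a20a, a proline carrier, one of -0.10 ± 0.33. Slc6a12, which carries betaine and GABA, stood at -0.69 ± 0.69. Slc6a13, which carries GABA and taurine, gave 1.07 ± 1.01 and was above background on 3 tumor and 2 normal arrays. Slc6a16, a carrier of unknown substrate, gave -0.70 ± 0.76, and Slc6a18, a neutral amino acid carrier of kidney, -0.40 ± 0.26, with 3 tumor arrays above background for each and 4 and 3 normal arrays.

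Slc3a2 encodes the heavy chain CD98hc, which brings several family 7 exchangers to the cell surface. It read 4.69, 4.70, 4.67, 3.88 and 4.94 in tumor replicates 1, 2, 3, 4 with 6, and 5, and 4.53, 4.70, 4.26, 4.15 and 4.48 in normal replicates 1, 2 with 3, 4, 5 and 6. The groups overlapped, with tumor replicates 4 and 6 below the rest. The log2 difference was 0.15 ± 0.24 (SE), and its 95% interval of -0.39 to 0.69 leaves folds between 0.763 and 1.61.

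The light chains that pair with Slc3a2 were not called. Slc7a5, or LAT1, which imports leucine and other large neutral amino acids, had a difference of 0.26 ± 0.40 (log2, SE) on its brightest probe and 0.03 ± 0.37 on the other. Slc7a8, or LAT2, averaged -0.65 ± 0.50 in tumor and -0.27 ± 0.36 in normal samples (SD), a difference of -0.37 ± 0.29 (SE). Slc7a7, or y+LAT1, which exports cationic amino acids and is mutated in lysinuric protein intolerance, averaged 2.40 ± 0.22 in tumor and 2.19 ± 0.34 in normal samples, a difference of 0.22 ± 0.23. Slc7a10, a carrier of small neutral amino acids, was above background on 1 tumor and 4 normal arrays and gave -0.41 ± 0.50. Slc7a15 gave -0.86 ± 0.61, with 2 tumor and 3 normal arrays above background.

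Slc43a2, or LAT4, a carrier of branched-chain amino acids that needs no heavy chain, averaged 1.04 ± 0.28 in tumor and 1.1 ± 0.37 in normal samples (SD), a log2 difference of -0.06 ± 0.25 (SE). Slc43a3, which in human cells carries purine nucleobases, averaged 2.07 ± 0.62 in tumor and 2.49 ± 1.11 in normal samples. Its difference was -0.42 ± 0.52, and without normal replicates 2 and 3, at 4.20, it was 0.01.

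The cationic carriers import arginine. Slc7a1, or CAT1, the general arginine carrier, averaged 1.68 ± 0.41 in tumor and 1.53 ± 0.36 in normal samples (SD), a log2 difference of 0.14 ± 0.27 (SE). Slc7a4, a relative of the cationic carriers, averaged -0.64 ± 0.29 in tumor and -0.03 ± 0.77 in normal samples, a difference of -0.61 ± 0.36. Slc7a2, or CAT2, is the carrier that macrophages induce on activation and that supplies arginine to nitric oxide synthase and arginase. Its probe (chr8:42002869-42002928, mm9) read -0.05, 1.07, -1.71, -2.06 and -3.89 in tumor replicates 1, 2, 3, 4 with 6, and 5, and -3.98, -2.91, -3.32, -2.73 and -3.27 in normal replicates 1, 2 with 3, 4, 5 and 6.

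For Slc7a2, 4 of 5 tumor samples lay above every normal sample, and tumor replicate 5 lay near the bottom of the normal samples. The probe was above background on 5 tumor and 2 normal arrays, so the size of the log2 difference, 1.92 ± 0.78 (SE, limma adjusted p = 0.325), is uncertain. It was 3.77 on slide 1, 1.38 on slide 2 and 0.06 on slide 3. Arg1, the arginase that splits arginine into ornithine and urea, had a difference of 3.68 ± 0.79 with no overlap between groups, and also missed the threshold (limma adjusted p = 0.0622), with 6 tumor and 3 normal arrays above background.

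Among the tumor samples, neutrophil markers stood in the same order as Slc7a2. The mean log2 signal of 10 neutrophil markers was -0.42, -0.38, -1.60, -1.79 and -2.68 in tumor replicates 1, 2, 3, 4 with 6, and 5. In normal replicates 1, 2 with 3, 4, 5 and 6 it was -2.12, -2.64, -3.65, -3.19 and -2.48, highest in replicate 1, where Slc7a2 was lowest. The mean of 9 monocyte markers was 2.56, 2.35, 2.23, 1.17 and 1.79 in the tumor samples and 0.08, 0.37, 0.29, -0.27 and 0.12 in the normal samples. Within the tumor samples, replicates 4 with 6 were lowest for the monocyte mean and replicate 5 was lowest for Slc7a2. The acinar mean rose over the same tumor samples, from -2.92 in replicate 1 to 1.38 in replicate 5. Tumor replicates 1 and 2 were on slide 1 and replicate 5 on slide 3, so the order also runs with slide. The mean of 6 dendritic cell markers was 0.86, -0.67, -0.95, 0.42 and 1.16 in the tumor samples, highest in replicate 5. Neutrophil markers held 0.024% to 0.0319% of the signal on tumor arrays and 0.0144% to 0.0233% on normal arrays. The part of any of these cell types, or of the slide, in the Slc7a2 values was not tested.

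In family 1, limma called 0 of 3 genes tested, and 0 had an unadjusted p under 0.05. Slc1a5, or ASCT2, a glutamine exchanger, averaged 1.17 ± 0.27 in tumor and 0.76 ± 0.53 in normal samples (SD), a log2 difference of 0.41 ± 0.28 (SE). Its other probe gave 1.06 ± 0.43, with overlapping groups. Slc1a4, or ASCT1, which exchanges alanine, serine and cysteine, averaged 3.66 ± 0.43 in tumor and 4.17 ± 0.29 in normal samples, a difference of -0.51 ± 0.26. Slc1a2, the main glutamate carrier of brain, gave -0.43 ± 0.75 with 4 tumor and 3 normal arrays above background.

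Carriers of family 36 move amino acids, and several take part in mTORC1 signalling. Slc36a4, or PAT4, read 1.05, 1.16, 0.77, 0.40 and 0.63 in tumor replicates 1, 2, 3, 4 with 6, and 5, and -0.09, 0.07, 0.38, 0.04 and 0.20 in normal replicates 1, 2 with 3, 4, 5 and 6. All tumor samples lay above all normal samples, by 0.02 at the nearest. The log2 difference was 0.68 ± 0.22 (SE, 95% interval of the fold 1.15 to 2.24), and limma's adjusted p was 0.211. Its other probe gave 1.28 ± 0.64 with overlapping groups, a size that is uncertain because 6 tumor arrays and 1 normal array were above background.

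Slc36a1, or PAT1, which exports amino acids from lysosomes together with protons, read 2.42, 2.47, 2.03, 2.46 and 2.25 in tumor samples and 2.29, 2.47, 2.14, 2.03 and 1.41 in normal samples on its brightest probe, in the order above. Those groups overlapped, and the log2 difference was 0.26 ± 0.24 (SE). Another Slc36a1 probe, also above background on all 12 arrays, read 2.76, 2.68, 2.20, 2.22 and 1.89 in tumor samples and 1.73, 1.16, 1.5, 1.70 and 1.79 in normal samples. On that probe all tumor samples lay above all normal samples, with a difference of 0.77 ± 0.24. Slc36a3 gave 0.05 ± 0.44.

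Genes that handle amino acids after uptake were described from 6 lists, and limma called 0 genes in each. The share of all genes tested at an unadjusted p under 0.05, to be read beside each list, was 13.1%. In the list of other amino acid and peptide carriers, 11 of 15 tested were positive with a median log2 difference of 0.44, and 3 had an unadjusted p under 0.05, all positive. These were the mitochondrial aspartate/glutamate carrier Slc25a13 (0.76 ± 0.24), the mitochondrial glycine carrier Slc25a38 (0.66 ± 0.27) and the lysosomal cysteine carrier Mfsd12 (0.73 ± 0.32, log2 with SE). Each missed the threshold, with limma adjusted p of 0.21, 0.325 and 0.358.

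The list of the amino acid response holds genes that the factor ATF4 induces when amino acids are scarce. It also holds Atf4 itself and Eif2ak4 and Eif2s1, which act upstream of it. Of this list, 18 of 23 tested were negative, with a median of -0.46. At an unadjusted p under 0.05, 3 were higher and 9 lower in tumor, beside 13.1% of all genes in either direction. Stc2, a secreted stress glycoprotein, had a difference of -1.74 ± 0.37 (limma adjusted p = 0.059), with no overlap. Nupr1, a stress-induced nuclear protein that is also abundant in injured pancreas, had -1.98 ± 0.52 (adjusted p = 0.132), and Sesn2, a leucine sensor, 0.96 ± 0.28 (adjusted p = 0.173). The mean of the list was 0.78, 0.52, 0.75, 0.43 and 0.69 in tumor replicates 1, 2, 3, 4 with 6, and 5, and 1.20, 1.45, 1.52, 1.17 and 0.64 in normal replicates 1, 2 with 3, 4, 5 and 6. Normal replicate 6, the normal sample with the lowest acinar mean, lay among the tumor samples, and the part of acinar RNA in these values was not tested.

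In the list of mTORC1 amino acid sensing, 15 of 24 tested were positive, with a median of 0.13, and 4 were higher and 1 lower at an unadjusted p under 0.05. Bmt2, a methionine-derived signal sensor also called Samtor, had a difference of 1.11 ± 0.23 with no overlap (limma adjusted p = 0.059). Castor1, an arginine sensor, had 3.06 ± 0.66 (limma adjusted p = 0.0631) and was above background on 6 tumor arrays and 1 normal array, so the size of that difference is uncertain. Sesn2, also in this list, is given above.

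In the list of cystine and glutathione, 9 of 15 tested were positive, with a median of 0.17, and 1 was higher and 1 lower at an unadjusted p under 0.05. Ggt1, which breaks down extracellular glutathione, was above background on 0 tumor and 5 normal arrays, with a limma adjusted p of 0.12. Srxn1, which repairs oxidized peroxiredoxins, had a difference of 0.93 ± 0.28 (limma adjusted p = 0.179), and glutathione reductase Gsr one of 0.85 ± 0.41 (0.42). For glutamine, glutamate and arginine enzymes, 9 of 20 were positive with a median of -0.08, and 1 was higher and 3 lower at an unadjusted p under 0.05. Beside Arg1, Aldh18a1 and Pycr1 of proline synthesis had differences of -0.80 ± 0.26 and -0.57 ± 0.20, each with no overlap (limma adjusted p = 0.209 and 0.264). Pycr1 was above background on 5 tumor and 3 normal arrays, so its difference is uncertain. Genes with a probe above background on no array had a median difference of -0.49. For branched-chain and tryptophan enzymes, 4 of 9 were positive with a median of -0.07, and 1 was higher at an unadjusted p under 0.05. That was Il4i1, an amino acid oxidase of myeloid cells, at 2.24 ± 0.71 (limma adjusted p = 0.207), followed by Bckdhb (-0.67 ± 0.36) and Bckdk (-0.45 ± 0.25) of branched-chain breakdown.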

How the data were processed

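Expression was measured on 12 one-color Agilent arrays, 6 of tumor and 6 of normal pancreas macrophages. Per the file headers, each was read with Feature Extraction 11.5.1.1, and the intensity values the authors deposited per spot include a background-subtracted processed signal. The authors also deposited a log2 table, which equalled quantile-normalized log2 processed signals (median absolute difference 0.000129, lowest correlation 0.9999, column medians 7.08), without gene centring. Amplification of cDNA, per the labels' protocols, can change the balance between transcripts.

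Of 44397 spots, 43020 were no controls. Spots with outlier flags (0.401%) were left out and 0 were saturated. Log2 was taken, the spots of a probe were averaged and the array's 75th percentile was subtracted. The filter kept 22448 of 39429 probes, those detected well above background on 3 or more of 6 arrays in either group. Members keep the file's gene name. Other probes were named through a GRCm38.p6 gene table, used only for names, by accession (27945), symbol (3409) or synonym (295), and 2036 by the file, with 5660 unnamed. Positions are mm9, from the array annotation.

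The 5 samples per group entered a limma fit (version 3.58.1, R 4.3.3, lmFit and eBayes) over 14740 genes with a median of 10.8 degrees of freedom. The number of arrays limits the precision. The members, lists and tests were chosen with earlier results of these data known. Members named with values are those past the threshold, the 12 with the smallest p, the 5 largest differences in each direction and a set chosen for known roles, and of each list the 3 genes with the smallest p. Slc38a10 and some further members are given besides, and 1 tested member is not reported here. Alternatives covered background correction, normalization, filter, probe choice, slide, arrays that share a name, variance model and leaving out each sample.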

Additional observations from a re-analysis of the deposited data

Results flagged for a closer look

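In 4 of the 50 sets of 5 samples examined, a sample at the end of its group lay farther from its nearest neighbour than Dixon's limit (a gap of 0.71 of the group's range), which chance passes in about 1 in 20 sets. Slc7a15 read -5.01 in normal replicate 4, against -3.02 in the nearest normal sample, and its probe was near background. Slc3a2 read 3.88 in tumor replicates 4 and 6, against 4.67 in the nearest tumor sample. Slc7a1 read 2.16 in normal replicates 2 and 3, against 1.46 in the nearest normal sample. Slc38a2 read 0.86 in normal replicate 4, against 1.86 in the nearest normal sample. All are log2 values relative to the array's 75th percentile, and what sets these samples apart was not tested.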

How the results depend on the processing

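In all, 25 alternatives were run, 10 of them leaving out a sample. The 1 transporter gene called became 2 with normexp background correction, 3 with 12 arrays as separate samples, 2 with a trended and robust variance, and 0, 0 and 0 within slides 1, 2 and 3 (6, 3 and 1 at an unadjusted p under 0.05), with 1 to 2 when a sample was left out. The 127 genes called in all became 214, 429, 228 and 0, 0 and 0 under the same settings (1410, 1414 and 859 unadjusted), 191 with a filter on all 6 arrays of a group, and 52 to 192 when a sample was left out: 72 and 68 without tumor replicates 1 and 2, 75, 84, 52 and 192 without normal replicates 1, 4, 5 and 6. The median difference of the transporter genes (-0.10) was -0.42 with no filter, where 29 untested genes enter with a median of -0.50, as dark probes of all genes do (-0.49), 0.05 with the filter on all 6 arrays, and -0.18 to -0.05 when a sample was left out. No paired analysis was possible because replicate numbers follow the order of deposit and pair no samples. The slides, which each hold both groups, could be blocked: with slide and sample name as blocks limma called 1 transporter gene and 137 genes in all, and Slc38a5 was -7.66 (adjusted p = 0.004).

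Differences that missed the threshold turned sign in some settings, and the cause was not tested. With 12 arrays, Slc1a2 was 0.03, Slc3a2 -0.01, Slc7a1 -0.06 and Slc7a5 -0.04. On slide 2, Slc1a2 was 0.13, Slc1a5 -0.22, Slc3a2 -0.19, Slc6a13 -0.26, Slc7a1 -0.55, Slc7a5 -0.41, Slc7a8 0.05, Slc7a15 0.51 and Slc43a2 0.18. On slide 1, Slc6a13 was -0.19 and Slc43a2 0.18, and on slide 3 Slc1a2 was 0.03. Slc43a2 was 0.01 with normexp. Leaving out a sample, Slc43a2 ran from -0.19 to 0.04, with -0.11 without tumor replicate 1 and 0.04, 0.04 and 0.02 without tumor replicate 5 and normal replicates 1 and 4. Slc1a2 ran from -0.81 to 0.22, with -0.69 without tumor replicate 5 and 0.22 without tumor replicate 3, and Slc43a3 was 0.01 without normal replicates 2 and 3.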
